A study of Mus musculus with 6 samples.

Results

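Solute carriers are membrane proteins that move sugars, amino acids, metals, nucleosides, ions and many other small molecules across the plasma membrane and the membranes of organelles. The genes described here were all rows of a mouse bone marrow expression table whose symbol starts with Slc and a digit, without the mitochondrial carriers (Slc25), the zinc exporters (Slc30) and the amine transporter gene Slc18a2. That rule took 212 of the 15139 rows, from 45 numbered families, and 208 of the 212 are annotated as protein coding. Bone marrow cells of Dnmt3a-/- mice (KO) and of Dnmt3a+/+ mice (WT) were grown for 1 week in RPMI with 10% fetal bovine serum, SCF (stem cell factor) at 50 ng/ml and IL3 (interleukin 3) at 10 ng/ml, cytokines under which mast cells and other myeloid cells grow out of marrow. Dnmt3a encodes an enzyme that methylates cytosines of CpG pairs in DNA, and the labels name MxCre+v for both genotypes, an interferon-inducible Cre recombinase used for deletion in blood-forming cells. Messenger RNA was measured in 2 KO libraries (replicates 2 and 3) and 3 WT libraries (replicates 1, 2 and 3). KO replicate 1 has no values in the expression table and was not analysed here. A label field calls the same cells a knockdown, the sources used here give neither the age of the mice nor the exons deleted, and nothing says that replicates came from separate mice or cultures.

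In macrophages, carriers of the lysosome and phagosome return digested amino acids, nucleosides, haem iron and sugars to the cytosol, and some withhold metals from engulfed microbes. In mast cells, carriers of the plasma membrane feed a large secretory apparatus, and carriers of the Golgi deliver the nucleotide sugars and sulfate donors from which the heparin and chondroitin chains of granules are built. The heavy chain encoded by Slc3a2 pairs with several light chains of the Slc7 family to form amino acid exchangers, so that members of different families can make up 1 transporter.

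Levels are FPKM, the fragments of a gene scaled by its length and by the mapped fragments of the library, which can be compared between genes. Changes are differences on the log2(FPKM + 1) scale, KO minus WT, with the standard error of limma's moderated fit, and a gene was called when its Benjamini-Hochberg adjusted p over all 11365 tested genes was under 0.05. The test took genes with 1 FPKM or more in 2 or more libraries. The depth of each library is unknown, FPKM summed to between 560387 and 603615 in KO libraries and between 585878 and 604368 in WT libraries, and no counting error can be given. Dnmt3a itself, on chromosome 12 from 3801559 to 3914443 in GRCm38.p6, had 2.58 and 3.42 FPKM in the KO libraries, against 6.68, 9.99 and 9.04 FPKM in the WT libraries (log2 change -1.25 ± 0.17, limma adjusted p = 0.00279). Xist was at 0.02 and 0 FPKM in the KO libraries, against 0, 14.4 and 15.3 FPKM in WT replicates 1, 2 and 3, and the sum of 4 Y-linked genes was 59.2 and 59.3 FPKM in the KO libraries, against 60.1, 0.02 and 0.09 FPKM in the WT libraries. Both KO libraries and WT replicate 1 thus read as male and WT replicates 2 and 3 as female, and sex and genotype are in part confounded.

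Of the 212 members, 144 passed the filter and 68 did not. Among the 68, 64 stayed under 1 FPKM in all 5 libraries, and the highest value of any was 1.41 FPKM, for the urea transporter gene Slc14a1 in WT replicate 1. Of the 144, 135 reached 1 FPKM in each of the 5 libraries, 4 passed through the WT libraries alone and none through the KO libraries alone. The members together held 2690 to 2780 FPKM in KO libraries and 2550 to 2640 FPKM in WT libraries. The median tested member had a mean of 8.36 FPKM, and 4 members averaged over 100 FPKM.

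More members fell than rose. Of the 144 tested, 41 were called (28.5%), against 22.1% of all genes tested, with 14 higher and 27 lower in KO. The share higher was 9.72%, against 9.08% of all genes tested, and the share lower was 18.8%, against 13.0%. The median log2 change of the members was -0.09, beside -0.04 over all genes tested. Both KO libraries lay below every WT library for 63 members (43.8%, against 30.8% of all genes tested) and above every WT library for 28 (19.4%, against 20.4%), so that the groups did not overlap for 91 members (63.2%, against 51.1%). A called change of at least 2-fold on this scale was seen for Slc45a3 upward (0.694% of tested members, against 1.77% of all genes tested) and for 5 members downward (3.47%, against 2.89%): Slc11a1, Slc44a1, Slc27a3, Slc29a3 and Slc37a2. Slc27a3 passed the filter through the WT libraries alone, where it was high, so that it could enter the test only as a fall. These shares are therefore not read as a difference from the other genes. Adding sex as a covariate sets the KO libraries against WT replicate 1 alone, and 23 members were then called (16.0%, against 11.5% of all genes tested), 7 higher and 16 lower. Without WT replicate 2, 30 were called (21.0%, against 14.4%), of which 9 were higher. Of the calls over all genes 41.2% were higher, and 53.8% after scaling to the upper quartile. Of the calls among members 34.1% were higher, and 42.1% after that scaling.

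**Figure D1:**
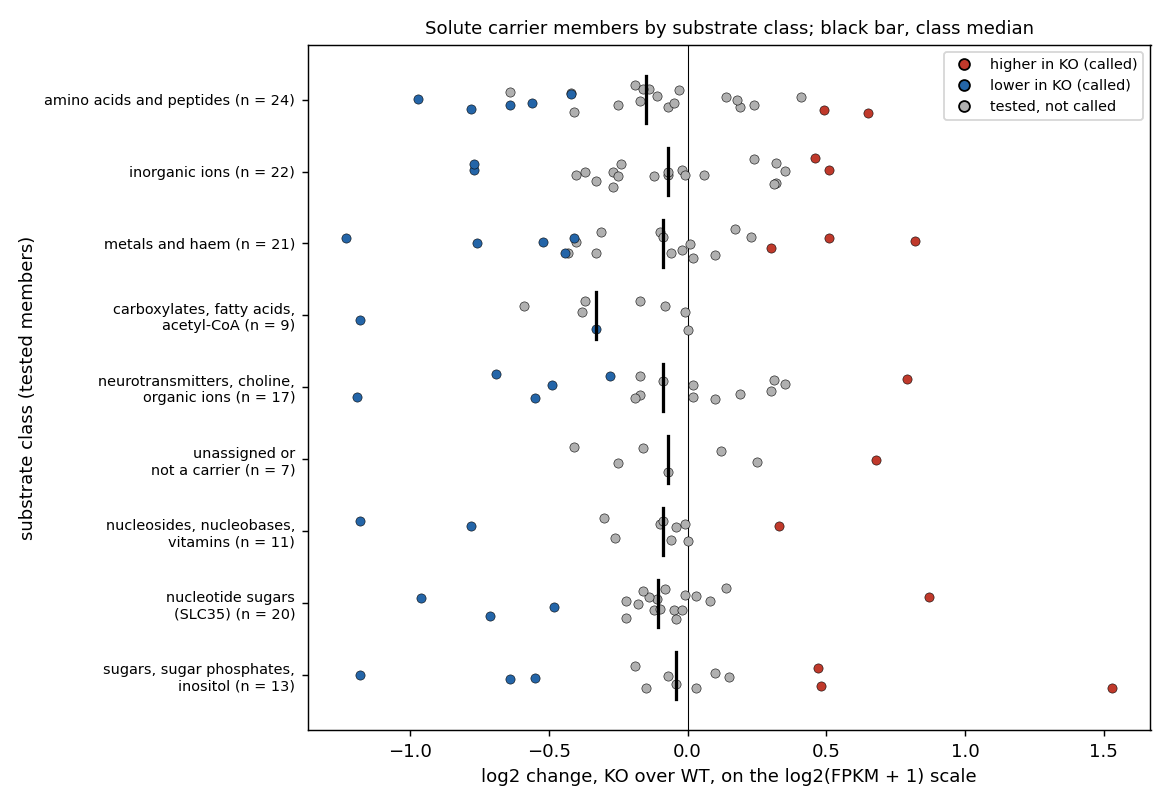
Change of each tested member by substrate class, as log2 change of KO over WT on the log2(FPKM + 1) scale; 1 point per gene, red or blue where the gene was called higher or lower, grey where it was not called, and a black bar at the class median. The class medians lie between -0.33 and -0.04, and in every class with more than 1 call except the carboxylate and fatty acid class, calls are found on both sides of 0.

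The cultures also differed in cell type markers. Of 15 mast cell markers 10 were higher and none lower, and their summed level was 32600 to 36700 FPKM in KO libraries, against 14000 to 15900 FPKM in WT libraries. Of 15 monocyte and macrophage markers 13 were lower and 1 was higher (Cx3cr1), with sums of 1700 to 2030 FPKM in KO libraries and 5510 to 7420 FPKM in WT libraries. Of the 13 neutrophil markers tested 10 were lower and none higher, with sums of 12900 to 16700 FPKM in KO libraries and 22500 to 33200 FPKM in WT libraries. Of 8 basophil markers 6 were higher, with sums over all 8 of 10300 to 10400 FPKM in KO libraries and 7150 to 8690 FPKM in WT libraries. The other 2, the basophil proteases Mcpt8 (log2 change -0.22, adjusted p = 0.306, limma) and Prss34 (log2 change -0.06, adjusted p = 0.862, limma), were not called. Fcer1a, among the 6, is also on the mast cell list. Of 9 eosinophil markers 1 was higher, and of 9 tested erythroid markers 1 was higher and 3 were lower. Over all genes tested 9.08% were called higher and 13.0% lower. No marker of these lists that has a row was at 0 in all libraries, and among the defining markers Kit, Cpa3, Csf1r, Lyz2, Elane and Mpo the lowest value was 25.4 FPKM, for Csf1r in KO replicate 3. Fewer cells of a type and less RNA per cell cannot be told apart in such bulk samples, and the part of these shifts in the changes below was not tested.

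Sugar carriers held the largest rise. Slc45a3, on chromosome 1 from 131962915 to 131982972, encodes a member of a family of proton-coupled sugar carriers and is best known as a prostate protein. It had 117 and 107 FPKM in the KO libraries, against 39.1, 33.4 and 42.4 FPKM in the WT libraries. Both KO values were far above the highest WT value, and in the order of mean levels among the 212 members the gene stood in place 5 in KO, against place 16 in WT (log2 change 1.53 ± 0.11, adjusted p = 0.000326, limma). The high-affinity glucose carrier GLUT3, Slc2a3, had 82.8 and 103 FPKM in the KO libraries, against 66.7, 66.9 and 64.9 FPKM in the WT libraries (log2 change 0.48 ± 0.10, adjusted p = 0.015, limma). The groups did not overlap, and KO replicate 3 was the highest. Slc2a1, which encodes GLUT1, the glucose carrier of most cells, had 32.8 and 39.1 FPKM in the KO libraries, against 38.4, 39.8 and 41.2 FPKM in the WT libraries, and its groups overlapped (log2 change -0.15, adjusted p = 0.305). Slc2a3 thus stood above Slc2a1 in every library of both genotypes. Slc2a6 (GLUT6, of lysosomes) and Slc2a8 (GLUT8) were not called (log2 change -0.04, adjusted p = 0.854, and log2 change -0.19, adjusted p = 0.216).

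The 4 members of the Slc37 family, named for the sugar phosphate exchangers among them, went different ways. Slc37a2, on chromosome 9 from 37229149 to 37255738 and known from macrophages and osteoclasts, had 3.94 and 3.45 FPKM in the KO libraries, against 8.31, 11.5 and 9.26 FPKM in the WT libraries (log2 change -1.18 ± 0.14, adjusted p = 0.00148, limma). Slc37a1 fell as well, to 1.8 and 2.42 FPKM in the KO libraries, against 3.51, 3.88 and 4.11 FPKM in the WT libraries (log2 change -0.64 ± 0.13, adjusted p = 0.014, limma). Neither overlapped between genotypes. Slc37a3, a lysosomal relative, rose (log2 change 0.47, adjusted p = 0.0154), and Slc37a4, the glucose 6-phosphate carrier needed for glucose release by liver, was not called (log2 change 0.03, adjusted p = 0.838). Slc45a4, the relative of Slc45a3, fell by 0.55 ± 0.11 on the log2 scale (limma adjusted p = 0.0133), so that the pair of tested Slc45 genes was called in opposite directions. Of the 13 tested genes of this class, 3 rose and 3 fell (46.2% called, against 22.1% of all genes tested), with a median log2 change of -0.04. Slc2a3 lost its call under 2 of 16 alternatives, sex as a covariate and leaving out WT replicate 3 (adjusted p between 0.00282 and 0.0983 over the alternatives). Slc37a1 lost its call under 2 of 15 alternatives, sex as a covariate and leaving out KO replicate 2 (adjusted p between 0.0118 and 0.12 over the alternatives). Slc37a3 lost its call under 2 of 16 alternatives, sex as a covariate and leaving out KO replicate 3 (adjusted p between 0.00841 and 0.0821 over the alternatives). Slc45a4 lost its call once sex was a covariate (adjusted p = 0.113).

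**Figure D2:**
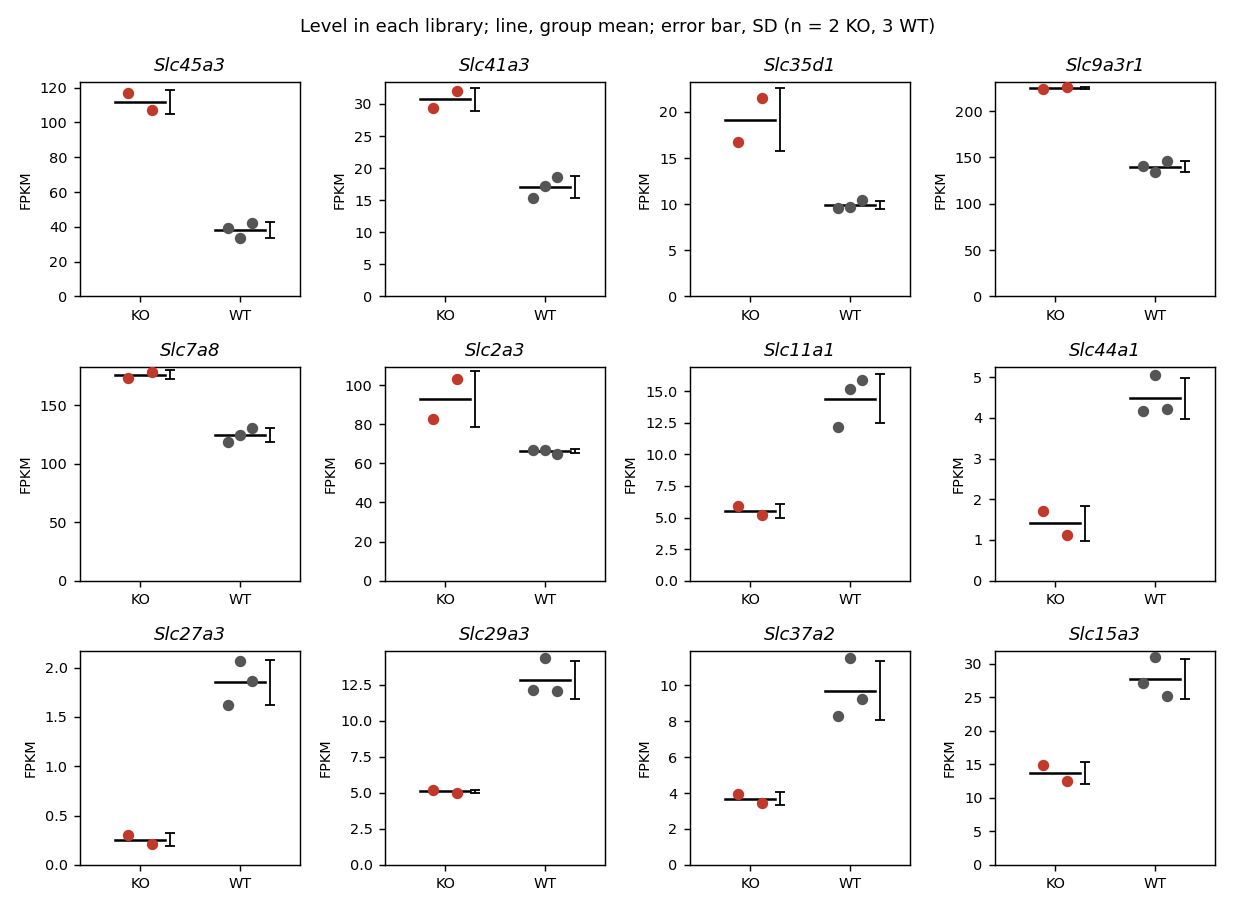
FPKM of 12 members in each library (y axis, linear and from 0), KO left and WT right; points are libraries, the line is the group mean and the error bar the SD (n = 2 KO, 3 WT). In each panel the KO and WT points do not overlap: the first 6 genes are higher in KO and the last 6 lower.

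Of 21 tested carriers of metals and haem, 3 rose, 5 fell and 13 were not called (38.1% called, against 22.1% of all genes tested). Slc11a1, on chromosome 1 from 74375014 to 74386057, encodes NRAMP1, which moves iron and manganese out of the phagosomes of macrophages and affects resistance to intracellular microbes. It had 5.94 and 5.16 FPKM in the KO libraries, against 12.2, 15.2 and 15.9 FPKM in the WT libraries (log2 change -1.23 ± 0.13, adjusted p = 0.000882, limma). Both KO values were well under the lowest WT value, that of WT replicate 1. Slc11a2, the paralog DMT1 that imports iron in most cells, had 9.59 and 7.11 FPKM in the KO libraries, against 10.8, 10.6 and 10.4 FPKM in the WT libraries and was not called (log2 change -0.33, adjusted p = 0.105), although it was without KO replicate 2 (adjusted p = 0.0143). The copper genes Slc31a1 and Slc31a2, which lie 62171 bases apart on chromosome 4, both fell. Slc31a2, which affects copper release inside cells, had 13.9 and 15.4 FPKM in the KO libraries, against 25.9, 25 and 25.2 FPKM in the WT libraries (log2 change -0.76 ± 0.08, adjusted p = 0.000881, limma), and Slc31a1, the copper importer CTR1, fell by 0.41 (adjusted p = 0.00912). In both genes the KO libraries lay below all WT libraries.

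Iron export and haem recycling showed smaller differences. Slc40a1, ferroportin, the sole known iron exporter of mammalian cells, had 13.2 and 11 FPKM in the KO libraries, against 19.4, 15.8 and 15.1 FPKM in the WT libraries. Its groups did not overlap, but it missed the threshold (log2 change -0.43, adjusted p = 0.0519), and it was called under 4 of 16 alternatives, sex as a covariate and leaving out KO replicate 2 among them. Slc48a1, which returns haem from the phagolysosome, was the highest metal or haem carrier at 86.8 and 83.5 FPKM in the KO libraries, against 78.1, 86.2 and 87 FPKM in the WT libraries, with overlapping groups (log2 change 0.02, adjusted p = 0.858). Outside the family, of 14 tested genes of iron handling 8 fell and none rose (57.1% called, against 22.1% of all genes tested), led by the haemochromatosis gene Hfe (log2 change -1.86, adjusted p = 0.000269), the haem oxygenase gene Hmox1 (log2 change -1.16, adjusted p = 0.00269), the siderophore-binding Lcn2 (log2 change -0.92, adjusted p = 0.016) and the transferrin gene Trf (log2 change -0.57, adjusted p = 0.0101). Hmox1 is typical of macrophages and Lcn2 of neutrophils, whose markers were lower in the same libraries, and the part of those cells in the falls was not tested.

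Zinc carriers were called in both directions, and the 1 magnesium carrier called was higher. The zinc importer gene Slc39a1 (ZIP1) had 25.5 and 26.5 FPKM in the KO libraries, against 37.4, 36 and 39.5 FPKM in the WT libraries (log2 change -0.52 ± 0.07, adjusted p = 0.00336, limma), and Slc39a5 fell too (log2 change -0.44, adjusted p = 0.034). Slc39a4 (ZIP4, the intestinal zinc importer) rose (log2 change 0.51, adjusted p = 0.021), as did Slc39a6 (log2 change 0.30, adjusted p = 0.0488), and the other 8 tested Slc39 genes, Slc39a8 (log2 change 0.17, adjusted p = 0.41) and the abundant Slc39a7 of the endoplasmic reticulum (log2 change -0.10, adjusted p = 0.459) among them, were not called. The magnesium carrier gene Slc41a3, on chromosome 6 from 90604730 to 90646412, had 29.4 and 32 FPKM in the KO libraries, against 15.3, 17.2 and 18.6 FPKM in the WT libraries (log2 change 0.82 ± 0.10, adjusted p = 0.00162, limma). Its lowest KO value was well above the highest WT value, while its relatives Slc41a1 (log2 change -0.40, adjusted p = 0.0786) and Slc41a2 (log2 change -0.09, adjusted p = 0.678) were not called. The median log2 change of the whole metal and haem class was -0.09. Slc39a5 lost its call under 9 of 16 alternatives, sex as a covariate and leaving out WT replicate 1, WT replicate 3 or KO replicate 3 among them (adjusted p between 0.0316 and 0.148 over the alternatives). Slc39a4 lost its call under 5 of 15 alternatives, sex as a covariate and leaving out WT replicate 1, WT replicate 2 or KO replicate 2 among them (adjusted p between 0.0122 and 0.0995 over the alternatives). Slc39a6 lost its call under 8 of 16 alternatives, sex as a covariate and leaving out WT replicate 1, WT replicate 2, WT replicate 3 or KO replicate 2 among them (adjusted p between 0.0197 and 0.227 over the alternatives). Slc31a1 lost its call once sex was a covariate (adjusted p = 0.0977).

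Amino acid and peptide carriers had the highest summed level of the classes, at 819 to 829 FPKM in KO libraries and 751 to 801 FPKM in WT libraries. Slc3a2, the heavy chain CD98, had 263 and 254 FPKM in the KO libraries, against 212, 218 and 226 FPKM in the WT libraries. The groups did not overlap, yet the gene missed the threshold (log2 change 0.24, adjusted p = 0.0524), and it was called under 4 of 16 alternatives, the 3 other scalings and leaving out KO replicate 3. Among its light chains Slc7a8 (LAT2) rose, with 174 and 179 FPKM in the KO libraries, against 119, 125 and 131 FPKM in the WT libraries (log2 change 0.49 ± 0.07, adjusted p = 0.00386, limma). Slc7a5 (LAT1), the main importer of leucine in dividing cells, had 137 and 135 FPKM in the KO libraries, against 143, 163 and 152 FPKM in the WT libraries and was not called (log2 change -0.17, adjusted p = 0.189). Slc7a8 stood above Slc7a5 in both KO libraries, and Slc7a5 above Slc7a8 in each WT library. The cystine importer light chain Slc7a11 had 6.19 and 8.7 FPKM in the KO libraries, against 4.43, 5.71 and 5.82 FPKM in the WT libraries (log2 change 0.41, adjusted p = 0.121, not called), although it was called without KO replicate 2 (adjusted p = 0.044). Slc7a6 and Slc7a7, light chains for cationic amino acids, were not called (log2 change -0.05, adjusted p = 0.712, and log2 change -0.42, adjusted p = 0.116). Of the 8 tested genes of these heteromeric exchangers and the related L-system, Slc7a8 rose and Slc43a2 fell. These 2 calls among 8 genes made a share near the 22.1% of all genes tested.

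Among amino acid and peptide carriers 5 fell. Slc15a3, which carries histidine and small peptides out of endosomes and lysosomes of phagocytes, had 14.9 and 12.5 FPKM in the KO libraries, against 27.2, 31 and 25.1 FPKM in the WT libraries (log2 change -0.97 ± 0.11, adjusted p = 0.00148, limma). Its lysosomal relative Slc15a4 had 10.5 and 12.5 FPKM in the KO libraries, against 13, 13.3 and 13.5 FPKM in the WT libraries and was not called (log2 change -0.19, adjusted p = 0.195). Slc43a2 (LAT4), an exporter of branched-chain amino acids, had 9.34 and 9.56 FPKM in the KO libraries, against 18.4, 17.4 and 15.3 FPKM in the WT libraries (log2 change -0.78 ± 0.10, adjusted p = 0.00167, limma). For Slc15a3 and Slc43a2 the KO values lay well under the lowest WT value. Slc38a6 (log2 change -0.64, adjusted p = 0.011), the aromatic amino acid carrier Slc16a10 (log2 change -0.56, adjusted p = 0.0074) and the lysosomal proton-coupled carrier Slc36a1 (log2 change -0.42, adjusted p = 0.0184) fell as well. Slc7a4 was the other riser of this class, at low levels of 2.51 and 2.43 FPKM in the KO libraries, against 1.55, 1.05 and 1.05 FPKM in the WT libraries (log2 change 0.65, adjusted p = 0.0205). The glutamine carriers Slc1a5 (log2 change -0.14, adjusted p = 0.197), Slc38a1 (log2 change -0.16, adjusted p = 0.189) and Slc38a2 (log2 change 0.18, adjusted p = 0.133) and the lysosomal arginine sensor Slc38a9 (log2 change -0.07, adjusted p = 0.745) were not called. The class had 2 rises and 5 falls among 24 tested genes (29.2% called, against 22.1% of all genes tested) and a median of -0.15. Slc38a6 lost its call once sex was a covariate (adjusted p = 0.0614). Slc16a10 lost its call once sex was a covariate (adjusted p = 0.063). Slc36a1 lost its call under 4 of 16 alternatives, sex as a covariate and leaving out WT replicate 2, WT replicate 3 or KO replicate 2 (adjusted p between 0.0151 and 0.171 over the alternatives). Slc7a4 lost its call under 5 of 15 alternatives, sex as a covariate and leaving out WT replicate 2, WT replicate 3, KO replicate 2 or KO replicate 3 (adjusted p between 0.0126 and 0.177 over the alternatives).

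**Figure D3:**
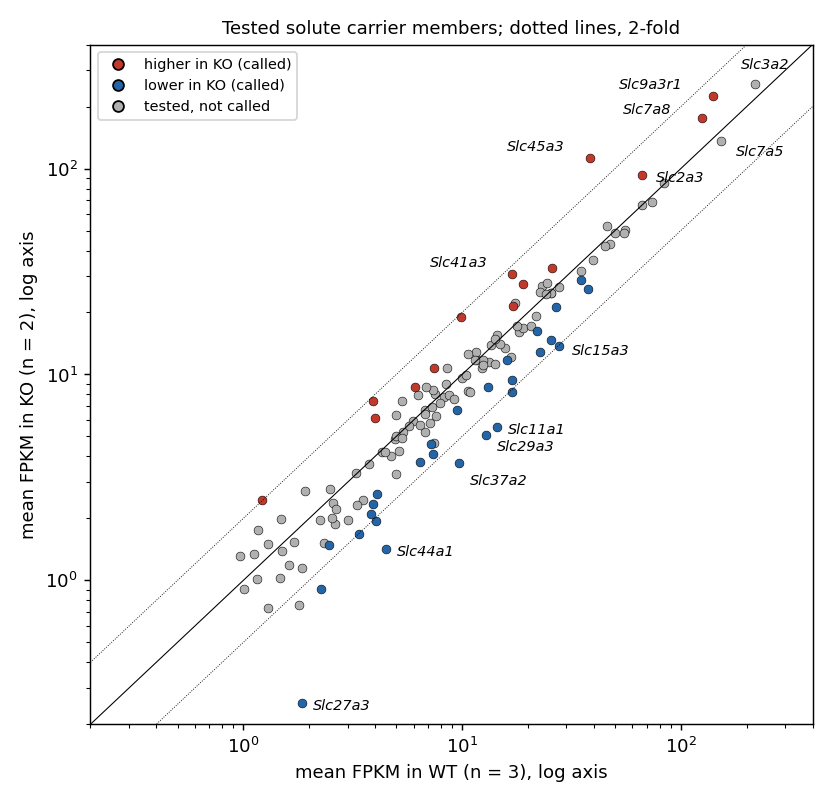
Mean FPKM of each tested member in KO (y axis, n = 2) against WT (x axis, n = 3), both axes logarithmic, with the line of equality and dotted lines at 2-fold; points are coloured as called higher, called lower or not called. Slc3a2 is at the top in both genotypes, Slc45a3 lies above the upper 2-fold line and Slc7a4 just above it, while Slc12a9, Slc36a2, Slc28a2, Slc35f6, Slc22a4 and Slc15a3 lie below the lower line together with the labelled Slc27a3, Slc44a1, Slc37a2, Slc11a1 and Slc29a3.

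Among nucleoside and vitamin carriers the fall was strongest in the lysosomal member. Slc29a3, on chromosome 10 from 60712072 to 60752849, encodes ENT3, which lets nucleosides leave the lysosome and whose loss in humans causes histiocytosis, an excess of macrophage-like cells. It had 5.18 and 5.02 FPKM in the KO libraries, against 12.1, 14.4 and 12.1 FPKM in the WT libraries (log2 change -1.18 ± 0.10, adjusted p = 0.000527, limma). The plasma membrane relative Slc29a1 (ENT1) had 35.6 and 30 FPKM in the KO libraries, against 26.9, 25.2 and 25.6 FPKM in the WT libraries and rose (log2 change 0.33 ± 0.09, adjusted p = 0.0438, limma). The pair was called in opposite directions, each without overlap between genotypes. Slc28a2, a sodium-coupled importer of purine nucleosides, fell to 1.67 and 2.2 FPKM in the KO libraries, against 3.82, 4.32 and 3.94 FPKM in the WT libraries (log2 change -0.78, adjusted p = 0.00524). The folate carrier gene Slc19a1 missed the threshold (log2 change -0.30, adjusted p = 0.0568), and the other tested vitamin carriers, for ascorbate, riboflavin, thiamine, biotin and folate, had adjusted p values of at least 0.682. Of 11 tested genes of this class 1 rose and 2 fell (27.3% called, against 22.1% of all genes tested), with a median of -0.09. Slc29a1 lost its call under 8 of 16 alternatives, sex as a covariate and leaving out WT replicate 1, WT replicate 2, WT replicate 3 or KO replicate 2 among them (adjusted p between 0.0168 and 0.259 over the alternatives). Slc28a2 lost its call once sex was a covariate (adjusted p = 0.0506).

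Among 9 tested carriers of carboxylates and fatty acids, Slc27a3 and Slc27a4 fell and 7 were not called, with a median log2 change of -0.33. The share called was 22.2%, near the 22.1% of all genes tested. Slc27a3, on chromosome 3 from 90385230 to 90390835 and of a family of fatty acid carriers with acyl-CoA synthetase activity, had 0.30 and 0.21 FPKM in the KO libraries, against 1.62, 2.07 and 1.86 FPKM in the WT libraries (log2 change -1.18 ± 0.15, adjusted p = 0.00171, limma). It passed the filter through the WT libraries alone, and the scale understates the change of a gene this low: the mean was 0.255 ± 0.0636 FPKM (SD, n = 2) in KO and 1.85 ± 0.225 FPKM (SD, n = 3) in WT. The relatives Slc27a4 (log2 change -0.33, adjusted p = 0.0255) and Slc27a1 (log2 change -0.59, adjusted p = 0.0505) were lower in both KO libraries than in every WT library, and Slc27a4 was called. The lactate carriers Slc16a3 and Slc16a1 were not called, nor was their relative Slc16a7 (log2 change -0.08, adjusted p = 0.712, limma). The exporter Slc16a3 (MCT4) had 62.7 and 70.3 FPKM in the KO libraries, against 69.6, 68.4 and 62.5 FPKM in the WT libraries with overlapping groups (log2 change -0.01, adjusted p = 0.959). Slc16a1 (MCT1) had 9.35 and 7.08 FPKM in the KO libraries, against 11, 11.6 and 10 FPKM in the WT libraries (log2 change -0.37, adjusted p = 0.0769). Slc16a1 was called without KO replicate 2 (adjusted p = 0.0216). Slc27a4 lost its call under 8 of 16 alternatives, sex as a covariate and leaving out WT replicate 1, WT replicate 2, WT replicate 3 or KO replicate 3 among them (adjusted p between 0.0223 and 0.108 over the alternatives).

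Choline, amine and organic ion carriers had 1 rise and 5 falls among 17 tested genes (35.3% called, against 22.1% of all genes tested), with a median of -0.09. Slc44a1, the choline carrier CTL1, on chromosome 4 from 53440387 to 53622478, had 1.72 and 1.11 FPKM in the KO libraries, against 4.17, 5.06 and 4.22 FPKM in the WT libraries (log2 change -1.19 ± 0.15, adjusted p = 0.00186, limma). Its relative Slc44a2 fell less, to 28 and 29.6 FPKM in the KO libraries, against 34.4, 35.1 and 35.7 FPKM in the WT libraries (log2 change -0.28, adjusted p = 0.0306). Both genes were without overlap. The betaine carrier Slc6a12 (log2 change -0.55, adjusted p = 0.0102), the ergothioneine carrier Slc22a4 (log2 change -0.69, adjusted p = 0.0371) and Slc22a15 (log2 change -0.49, adjusted p = 0.0323) fell. Slc6a12 lies 4853 bases from Slc6a13, a GABA carrier that was not called and had a positive change (log2 change 0.30, adjusted p = 0.113). Slc22a4 and its carnitine-carrying relative Slc22a5 (log2 change 0.02, adjusted p = 0.922, not called) lie on both sides of Slc22a21 on chromosome 11, and reads may be shared among such close relatives.

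The creatine carrier Slc6a8, on the X chromosome, was the member of this class that rose. It had 6.4 and 8.48 FPKM in the KO libraries, against 2.8, 4.54 and 4.39 FPKM in the WT libraries, with the lowest WT value in WT replicate 1, the male library (log2 change 0.79 ± 0.19, adjusted p = 0.0259, limma). With sex as a covariate its log2 change was 1.14 (adjusted p = 0.0114). Of the 5 tested members on the X chromosome it was the single one called (20.0%, near the 22.1% of all genes tested). The serotonin importer Slc6a4, which mast cells and basophils use to take up the amine, had 21.9 and 27.4 FPKM in the KO libraries, against 23.2, 26.5 and 22.9 FPKM in the WT libraries and overlapping groups (log2 change 0.02, adjusted p = 0.919). The histamine and organic cation carrier Slc22a3 (log2 change -0.17, adjusted p = 0.432) and the taurine carrier Slc6a6, the highest of this class at 40.6 and 56.2 FPKM in the KO libraries, against 51.4, 58.6 and 54.6 FPKM in the WT libraries (log2 change -0.19, adjusted p = 0.359), were not called, although Slc6a6 was without KO replicate 3 (adjusted p = 0.0335). With sex as a covariate Slc22a4 had a log2 change of -1.05 (adjusted p = 0.012). Slc6a8 lost its call under 2 of 16 alternatives, leaving out KO replicate 3 among them (adjusted p between 0.0114 and 0.149 over the alternatives). Slc6a12 lost its call once sex was a covariate (adjusted p = 0.082). Slc22a4 lost its call under 6 of 15 alternatives, leaving out WT replicate 1, WT replicate 2, KO replicate 2 or KO replicate 3 among them (adjusted p between 0.012 and 0.126 over the alternatives). Slc22a15 lost its call under 8 of 15 alternatives, leaving out WT replicate 1, WT replicate 2, WT replicate 3, KO replicate 2 or KO replicate 3 among them (adjusted p between 0.0265 and 0.108 over the alternatives). Slc44a2 lost its call under 10 of 16 alternatives, sex as a covariate and leaving out WT replicate 1, WT replicate 2, WT replicate 3 or KO replicate 2 among them (adjusted p between 0.0283 and 0.213 over the alternatives).

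Nucleotide sugar carriers of the SLC35 family supply the Golgi and endoplasmic reticulum with building blocks of glycans. The class took every SLC35 gene, whatever its substrate. It had 1 rise and 3 falls among 20 tested genes, with a median log2 change of -0.11. The share called was 20.0%, near the 22.1% of all genes tested. The riser was Slc35d1, which brings UDP-glucuronic acid and UDP-N-acetylgalactosamine into the endoplasmic reticulum and is needed for chondroitin sulfate in cartilage. It had 16.7 and 21.6 FPKM in the KO libraries, against 9.58, 9.73 and 10.4 FPKM in the WT libraries (log2 change 0.87 ± 0.12, adjusted p = 0.00233, limma). The KO libraries differed from each other but both exceeded every WT library. Slc35f6 had 8.85 and 7.51 FPKM in the KO libraries, against 14.8, 18.6 and 17.2 FPKM in the WT libraries (log2 change -0.96 ± 0.12, adjusted p = 0.00168, limma), and Slc35f5 (log2 change -0.71, adjusted p = 0.00437) and Slc35e3 (log2 change -0.48, adjusted p = 0.0365) fell as well. The highest member, Slc35b1, an exchanger of ATP and ADP at the endoplasmic reticulum, had 49.7 and 50.8 FPKM in the KO libraries, against 53.4, 57.9 and 55.3 FPKM in the WT libraries (log2 change -0.14, adjusted p = 0.207, not called). The carriers of CMP-sialic acid (Slc35a1), UDP-galactose (Slc35a2), GDP-fucose (Slc35c1) and the sulfate donor PAPS (Slc35b2 and Slc35b3) had log2 changes between -0.05 and 0.08 and were not called. Slc35e3 lost its call under 8 of 15 alternatives, sex as a covariate and leaving out WT replicate 1, WT replicate 2, WT replicate 3, KO replicate 2 or KO replicate 3 among them (adjusted p between 0.0182 and 0.122 over the alternatives).

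Carriers of inorganic ions had 2 rises and 2 falls among 22 tested genes (18.2% called, against 22.1% of all genes tested), with a median of -0.07. The phosphate importer Slc20a1 (PiT1), the highest of the class, had 25.7 and 29.3 FPKM in the KO libraries, against 17.1, 19.5 and 20.3 FPKM in the WT libraries (log2 change 0.51 ± 0.10, adjusted p = 0.0117, limma). Slc4a7, a sodium bicarbonate importer that counters acid, had 8.43 and 9.04 FPKM in the KO libraries, against 5.8, 5.8 and 6.69 FPKM in the WT libraries (log2 change 0.46 ± 0.10, adjusted p = 0.0174, limma). Both were higher in each KO library than in any WT library. Slc8b1, the mitochondrial exchanger NCLX that releases calcium from mitochondria, had 12.6 and 12.9 FPKM in the KO libraries, against 25.2, 22.9 and 19.7 FPKM in the WT libraries (log2 change -0.77 ± 0.11, adjusted p = 0.00314, limma). Slc12a9, a relative of the cation chloride cotransporters, fell to 0.90 and 0.92 FPKM in the KO libraries, against 2.54, 2.1 and 2.18 FPKM in the WT libraries (log2 change -0.77, adjusted p = 0.00618), and it passed the filter through the WT libraries alone. The plasma membrane calcium exchanger Slc8a1 (NCX1) was not called (log2 change 0.24, adjusted p = 0.294), nor was the anion carrier gene Slc26a11 (log2 change 0.35, adjusted p = 0.0837). Slc20a1 lost its call without KO replicate 3 (adjusted p = 0.0612). Slc4a7 lost its call under 4 of 16 alternatives, sex as a covariate and leaving out WT replicate 1, WT replicate 2 or KO replicate 3 (adjusted p between 0.0103 and 0.0793 over the alternatives).

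The rule also took 14 genes that are not carriers or that were given no substrate here, of which 7 were tested. Slc9a3r1, which encodes NHERF1, a scaffold that ties membrane proteins to ezrin and the cytoskeleton, had 224 and 226 FPKM in the KO libraries, against 140.5, 134 and 146 FPKM in the WT libraries (log2 change 0.68 ± 0.07, adjusted p = 0.000966, limma). It was the second highest of the 212 members in KO and the third in WT. The other 6 tested genes of this group were not called (14.3% called in the group, against 22.1% of all genes tested).

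**Figure D4:**
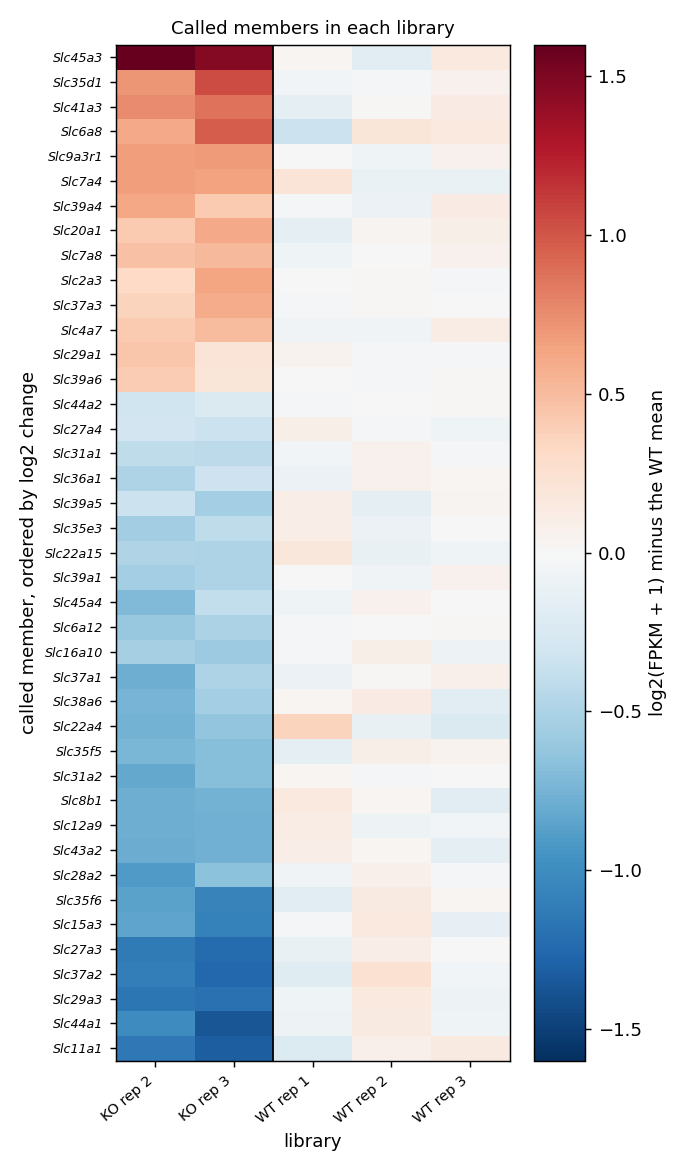
The 41 called members (rows, ordered by log2 change) in each library (columns, KO left of the line and WT right of it), coloured by log2(FPKM + 1) minus the WT mean. The 14 genes at the top are higher in both KO libraries and the 27 below are lower in both.

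Carriers of lysosomes and endosomes cut across these classes. Of the 17 listed genes that have a row, all were tested, 4 fell (Slc11a1, Slc29a3, Slc15a3 and Slc36a1) and none rose. The share called was 23.5%, against 22.1% over all genes tested. Slc37a3, named above as a lysosomal relative, was not on this list and rose (log2 change 0.47, adjusted p = 0.0154, limma). The median log2 change of the 17 was -0.19, and both KO libraries lay below all WT libraries for 11 of the 17, against 30.8% of all genes tested and 43.8% of the tested members. Their summed level was 260.0 to 272 FPKM in KO libraries and 299 to 310.0 FPKM in WT libraries. Of 30 tested genes on a list of partners and regulators of carriers, 2 rose and 8 fell (33.3% called, against 22.1% of all genes tested). That list also holds carriers with other symbols, such as Slco3a1. The transcription factor gene Tfeb, a regulator of lysosomal genes, had 9.12 and 9.49 FPKM in the KO libraries, against 18.4, 18.5 and 16.6 FPKM in the WT libraries (log2 change -0.87 ± 0.09, adjusted p = 0.000736, limma). Arrdc4 (log2 change -1.04, adjusted p = 0.00548), of the arrestin-like family of Txnip, Tmem37 (log2 change -1.24, adjusted p = 0.00484) and the organic anion carrier gene Slco3a1 (log2 change -0.61, adjusted p = 0.0475) fell too. Nedd4l, a ubiquitin ligase of ion carriers, rose (log2 change 0.59, adjusted p = 0.00577).

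Because Dnmt3a methylates CpG pairs, promoter windows from RefSeq (GRCm38.p6, from 250 bases before to 50 after a start) are shown for the member with the largest rise and for 3 of the 5 members that fell at least 2-fold, with CpG pairs in capitals. Slc45a3 has a pair of annotated starts, and both windows are given, 5′ to 3′.
Slc45a3 (chr1:131962665-131962964, plus strand): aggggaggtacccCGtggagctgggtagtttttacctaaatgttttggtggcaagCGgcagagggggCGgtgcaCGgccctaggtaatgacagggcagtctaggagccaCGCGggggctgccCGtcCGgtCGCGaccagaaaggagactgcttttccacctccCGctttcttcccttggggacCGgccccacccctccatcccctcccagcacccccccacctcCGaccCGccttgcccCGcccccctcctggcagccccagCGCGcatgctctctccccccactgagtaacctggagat
Slc45a3 (chr1:131970359-131970658, plus strand): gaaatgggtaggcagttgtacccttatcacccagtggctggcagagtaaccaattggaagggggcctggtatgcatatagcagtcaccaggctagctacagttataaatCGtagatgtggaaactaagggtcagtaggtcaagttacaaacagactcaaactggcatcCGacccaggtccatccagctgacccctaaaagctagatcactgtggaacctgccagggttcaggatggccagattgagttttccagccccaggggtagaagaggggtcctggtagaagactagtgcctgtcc
Slc11a1 (chr1:74374953-74375252, plus strand): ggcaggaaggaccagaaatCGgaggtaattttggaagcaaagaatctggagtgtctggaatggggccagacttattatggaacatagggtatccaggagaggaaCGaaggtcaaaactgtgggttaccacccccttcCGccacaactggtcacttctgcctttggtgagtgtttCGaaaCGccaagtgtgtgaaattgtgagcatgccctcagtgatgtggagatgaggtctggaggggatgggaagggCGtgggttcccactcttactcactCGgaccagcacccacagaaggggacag
Slc37a2 (chr9:37255689-37255988, minus strand): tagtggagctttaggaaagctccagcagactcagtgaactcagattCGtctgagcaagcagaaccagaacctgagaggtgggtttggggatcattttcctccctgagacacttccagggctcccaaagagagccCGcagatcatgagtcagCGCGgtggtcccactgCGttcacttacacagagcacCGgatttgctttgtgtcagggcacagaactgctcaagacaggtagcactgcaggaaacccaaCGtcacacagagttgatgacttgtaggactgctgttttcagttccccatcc
Slc29a3 (chr10:60752733-60753032, minus strand): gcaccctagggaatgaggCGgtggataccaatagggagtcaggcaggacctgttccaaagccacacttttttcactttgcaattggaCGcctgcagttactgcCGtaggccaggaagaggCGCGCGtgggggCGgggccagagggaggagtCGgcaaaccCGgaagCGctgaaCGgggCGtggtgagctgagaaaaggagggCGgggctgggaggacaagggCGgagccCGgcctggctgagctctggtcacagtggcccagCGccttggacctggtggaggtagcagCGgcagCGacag
The upstream Slc45a3 window holds 17 CpG pairs and the downstream window 2. Slc11a1 and Slc37a2 hold 7 each and Slc29a3 holds 18. The 2-fold fallers not shown hold more, with 20 pairs for Slc27a3 and a median of 43 over 2 windows for Slc44a1. RefSeq windows were matched for 108 of the 144 tested members and for 8945 of the 11365 tested genes, with the median over windows taken where a gene has several. The median number of CpG pairs was 20.0 over the 9 higher members with a window, 20.5 over the 24 lower ones, 18.0 over the 75 not called and 21.0 over all tested genes. These counts are given as a description and were not tested.

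Short motifs were searched on both strands as well, and a match is a description of the letters in the window. The E-box CACGTG was found for 4 of the 9 higher members (Slc20a1, Slc29a1, Slc37a3 and Slc41a3), 5 of the 24 lower members and 1075 of the 8945 tested genes with a window. Slc29a1 has 8 windows, so it had more chances to match than most. The letters GAGGAA, the core of sites for the myeloid factor PU.1, were found for 9 of the 24 lower members, Slc11a1 and Slc37a2 among them, 2 of the 9 higher members and 30.7% of all tested genes with a window. AGATAA, a form of the GATA factor site, was found for 1 lower member, 1 higher member and 8.02% of all tested genes with a window, and the AP-1 site TGACTCA for 1 lower member (Slc37a2), no higher member and 4.68% of all tested genes with a window.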

How the data were processed

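Messenger RNA of 5 libraries (2 KO, 3 WT) was analysed from 1 table with 2 decimals, in which the values deposited by the authors are FPKM per gene. Per the labels' protocols, RNA was selected with oligo(dT) and libraries were made with a SMARTER kit and read on an Illumina HiSeq. Per the submitters' processing notes the build was mm10 and the tools include StringTie 1.2.1, HISAT and edgeR, whose roles and order are not stated. FPKM keep no read totals, so depth is unknown.

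Genes with at least 1 FPKM in at least 2 libraries were tested with limma 3.58.1 in R 4.3.3 on log2(FPKM + 1), with variances trended on the mean, genotype as the only term, 3 residual degrees of freedom and Benjamini-Hochberg adjustment over the tested genes at 0.05. The fit was checked on simulated data. P values measure only the spread between these libraries, which may be technical. Alternatives changed the pseudocount (0.1 or 0.5), the filter, the scaling, the variance model, the replicate block, sex as a covariate and the libraries included.

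Members, classes and lists were chosen with earlier results of these data known. Named by rule were, per class, up to 5 called members of largest change, the member with the highest mean, called members past 2-fold and a fixed list, and per other list up to 4 called genes of largest change. The remaining members named, such as Slc31a1, Slc36a1, Slc37a3 and those not called, were chosen after their values were seen. Reads of close paralogs and of overlapping or antisense genes may have been split or shared, since the sources used here do not describe the counting. Symbols were matched to RefSeq for positions and promoter windows.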

Additional observations from a re-analysis of the deposited data

How the results depend on the processing

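Of the 41 called members, 18 were called under every one of the 16 alternatives in which they were tested, and none of the 63 named or called members with a test reversed in a setting where it was called. With sex as a covariate, 1312 genes and 23 members were called, 7 higher and 16 lower. After upper-quartile scaling the median log2 change of the members was -0.03. Leaving out each library in turn gave 1623 to 2659 called genes and 30 to 37 called members, of which 9 to 12 were higher and 21 to 26 lower. Without WT replicate 2, the lowest of these, 1623 genes were called and 9 members were higher. The cause of these shifts was not tested, although the sex and leave-one-out fits have 2 residual degrees of freedom. Without a KO replicate the lone KO library is assumed to vary like the WT libraries. The labels do not say whether replicates with the same number were paired across genotypes. Deviations from the group mean correlated at -0.029 for number 2 and 0.099 for number 3. The deviations of 2 KO libraries from their mean are always opposite, so these values cannot show whether pairs exist. With the replicate block, which leaves 1 residual degree of freedom, 2058 genes and 35 members were called. Of the tested members 24.3% were called, against 18.1% of all genes tested, with 11 higher and 24 lower. With 2 KO libraries, unknown depth and a median standard error of 0.11 on the log2 scale, a member that missed the threshold is not shown to be equal between genotypes.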
